A study of Mus musculus with 46 samples.

Results

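Eukaryotic translation initiation factor 3 (eIF3) is the largest of the factors that start protein synthesis. It binds the small ribosomal subunit, helps to recruit the mRNA and holds the ribosomal subunits apart until the start codon is found. Its core is built from subunits with a PCI domain, an interaction domain shared with the proteasome lid and the COP9 signalosome, and from a pair of subunits with an MPN domain, which occurs in the same complexes. Other subunits are attached to this core. Here 10 eIF3 subunit genes were followed, taken by symbol: Eif3a, Eif3b, Eif3c, Eif3d, Eif3e, Eif3f, Eif3h, Eif3i, Eif3k and Eif3l. The tables hold 10453 symbols that stand on 1 entry, and all 10 subunits were among them. Each stood in the tables of either treatment and passed the filter on low counts in every comparison. The set was chosen by name, with earlier results of these data known.

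The cells were EPP2, a murine pancreatic cancer line, used as a clone derived from a single cell that carries a doxycycline-inducible Cas9, so that every group stands for 1 clone. For the Ctu1 inducible knockout (Ctu1 iKO), Cas9 was induced with 300 ng/ml doxycycline 4 days before the experiment in cells with guide RNAs against Ctu1. Ctu1 is the catalytic subunit of the enzyme that thiolates the wobble uridine of a few tRNAs. The control carries the genotype label WT, and the sources used here do not say for these libraries whether it held guide RNAs against non-coding regions or was left without doxycycline. Control and Ctu1 iKO cells received DMSO or 300 nM torin 1, an inhibitor of the mTOR kinase, for 2 h. Torin 1 is known for lowering the translation of mRNAs that begin with a C followed by an unbroken run of pyrimidines (5′ terminal oligopyrimidine or TOP mRNAs), to which ribosomal proteins and several translation factors belong. The study took ribosome footprints, the mRNA stretches that ribosomes protect from nuclease, and poly(A) RNA under the same 23 group and replicate labels, called cultures here. There were 6 control cultures with DMSO, 6 control cultures with torin 1, 5 Ctu1 iKO cultures with DMSO and 6 Ctu1 iKO cultures with torin 1. By the methods, ribosome profiling was done as 2 biologically independent replicates on successive days, while the legends call the 5 or 6 libraries a group independent experiments, and the sources used here do not settle between both. Each number was counted as 1 replicate in every n, so that every p-value measures the spread between these libraries only, part of which may be technical.

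Footprint libraries summed to between 4602092 and 52907878 counts (median 15387951) and RNA libraries to between 129881946 and 325494304. Every RNA count was even, while 48.7% of the footprint counts were odd. No library was a duplicate of another of its group, the variance between footprint libraries being 21.1 times that of counting error or more. The targeted gene gives a weak check of the labels. CPM of Ctu1, of the marker genes and of their sums are counts scaled for depth by library totals only. CPM of the eIF3 subunits are scaled by TMM factors as well. Ctu1 was listed in the DMSO tables only. Its footprints came to 2.52 ± 0.649 CPM (SD, n = 6) in control and 1.78 ± 0.415 (SD, n = 5) in Ctu1 iKO, and the groups overlapped. The log2 change of Ctu1 footprints was -0.54 (adjusted p = 0.353 with edgeR). Ctu1 RNA came to 4.63 ± 0.346 CPM (SD, n = 6) and 4.04 ± 0.82 (SD, n = 5) over all replicates, overlapping as well. On an axis drawn over all genes between replicates 1 and 2 of 2 groups, 6 of the 15 later RNA libraries lay nearer the other treatment and 4 nearer the other genotype. For this reason RNA was compared in replicates 1 to 3. Among the 15 later footprint libraries, 1 lay nearer the other treatment (control torin 1 replicate 3, at 0.49 of the way from DMSO) and 3 nearer control (Ctu1 iKO DMSO replicates 3, 4 and 5, at 0.35 to 0.43 of the way from control). Footprint changes between groups are also given without these 4 libraries. Fits of footprints against RNA or against the mean of the subunits were not run without them. Of the lineage markers, 4 of 7 epithelial and 5 of 5 mesenchymal genes were listed. In control with DMSO, the mesenchymal genes Vim (2.36e+03 to 2.63e+03 RNA CPM) and Fn1 (2.56e+03 to 4.17e+03) were far above the epithelial gene Krt8 (127 to 150), Epcam was near 1 CPM, and Krt7, Cdh1 and Cldn4 were not listed. Of the immune markers only Cd68 was listed, at 1.54 to 1.81 CPM, and none of the acinar, endocrine or endothelial markers was. In bulk libraries, fewer cells with a transcript and less of it per cell cannot be told apart.

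The 5′ ends of the subunit genes are shown because TOP mRNAs are defined by their first bases, and 7 of the 10 subunits were matched. The windows below run from 10 bases before the annotated start to 20 bases from it (RefSeq, GRCm38.p6). Capitals mark the longest run that begins with C and goes on with 4 or more C or T.
Eif3f, chr7:108934405-108934434, plus strand: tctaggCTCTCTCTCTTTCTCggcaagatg
Eif3l, chr15:79075213-79075242, plus strand: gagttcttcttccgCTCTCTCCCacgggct
Eif3k, chr7:28981869-28981898, minus strand: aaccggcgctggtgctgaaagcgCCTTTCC
Eif3b, chr5:140419295-140419324, plus strand: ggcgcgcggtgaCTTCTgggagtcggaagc
Eif3c, chr7:126566347-126566376, minus strand: ctgctcagagggactcggcagcttagctgg
Eif3d, chr15:77970805-77970834, minus strand: agggccatttacgacagcgctggtcgccgt
Eif3a, chr19:60790674-60790703, minus strand: ctcgggcggcggcgctgccgccgcgaggga

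The run of Eif3f was 15 bases long and began 4 bases before the annotated start. Eif3l had a run of 9 bases, Eif3b one of 5 and Eif3k one of at least 7, cut by the end of the window, and the windows of Eif3a, Eif3c and Eif3d had none. Such a run stood in 35.8% of all 32851 promoters of the table and a run of at least 7 bases in 13.5%. Among 66 cytosolic ribosomal protein genes, the shares were 60.6% and 40.9%. The windows describe the annotation and not the starts used in EPP2 cells. In another annotation (GENCODE M21), the 5′ ends of Eif3a, Eif3b, Eif3c, Eif3k and Eif3l lay outside these windows. Presence or absence of a run thus holds for the RefSeq starts only. Eif3e, Eif3h and Eif3i were not matched, and the runs were not tested against any response.

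Levels of the subunits were compared per length, as footprint CPM per kb of coding sequence and as RNA CPM per kb of transcript. Eif3k, a small peripheral PCI subunit, was the highest in all 4 groups and both assays. In control cells with DMSO, its footprint level was 543.5 ± 45.1 CPM per kb (SD, n = 6). Eif3i, a β-propeller subunit that binds Eif3b, followed with 249 ± 24.7, and the next was Eif3f, an MPN subunit, with 176.5 ± 9.42 (SD, n = 6 for both). These gaps were larger than the spread, with Eif3k above Eif3i and Eif3i above Eif3f in 6 of 6 cultures. From Eif3f over Eif3b, Eif3h and Eif3e to Eif3c, neighbours did not differ beyond their spread. Eif3c was above Eif3l in 6 of 6 cultures, and Eif3l, Eif3a and Eif3d formed the lower end without differing from their neighbours, with Eif3d at 97.6 ± 10.4. The highest level was 5.58 times the lowest.

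**Figure D1:**
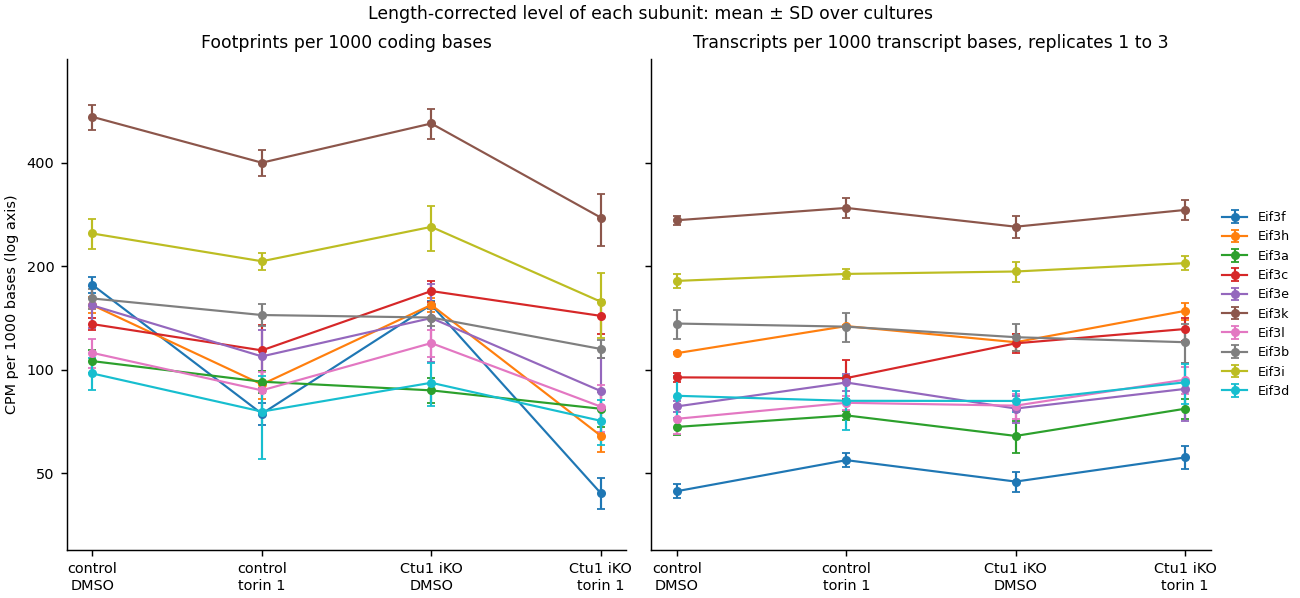
Length-corrected level of each subunit (CPM per kb, log axis) in the 4 groups, for footprints in the left panel and RNA in the right. Points are means and bars the SD over cultures, and lines only join the points of a subunit. Eif3k is at the top throughout, and footprints of Eif3f run from 176.5 in control with DMSO to 43.8 in Ctu1 iKO with torin 1.

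The place of Eif3f in the order depended on the length used. Per kb of coding sequence it was the third of 10 in control with DMSO, the ninth in control with torin 1 (74.6 ± 5.29 CPM per kb, SD, n = 6), the fourth in Ctu1 iKO with DMSO (155 ± 3.85, SD, n = 5) and the last in Ctu1 iKO with torin 1 (43.8 ± 4.51, SD, n = 6). In the last group it was below its neighbour Eif3h in 6 of 6 cultures. At the RNA level, Eif3f was the lowest of the 10 subunits in all 4 groups, with 44.4 ± 2.09 CPM per kb of transcript in control with DMSO (SD, n = 3) against 272 ± 8.73 for Eif3k. The coding sequence is 1083 bases of the 2514 bases of its transcript, the lowest share among the subunits, which bears on comparisons between subunits but not on those of a subunit between groups. Per kb of transcript, as for RNA, Eif3f footprints too were the lowest of the 10 in all 4 groups (76.03 in control with DMSO, 32.1 with torin 1, 66.6 in Ctu1 iKO with DMSO and 18.9 with torin 1), so that no contrast between the order of footprints and of RNA can be read.

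Torin 1 lowered footprints of 5 of 10 subunits in control cells, where 7.24% of the 9856 genes tested were called and 4.33% were called lower. The fold change was greatest for the MPN subunits Eif3f and Eif3h, followed among the called subunits by the PCI subunits Eif3e, Eif3k and Eif3l. The median log2 change of the 10 subunits was -0.36, against 0.02 over all genes tested. All 10 subunits lay below their same-numbered DMSO culture in 6 of 6 numbers, whether they passed the test or not. Summed RNA CPM of the lineage markers moved as well, without overlap, from between 266 and 282 to between 344 and 377 for the epithelial list and from between 5.28e+03 and 6.65e+03 to between 7.14e+03 and 8.95e+03 for the mesenchymal list, and their part in the result was not tested.

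Eif3f footprints lay between 182 and 209 CPM with a median of 189 in control with DMSO and between 73.8 and 89.2 with a median of 81.2 in control with torin 1. The groups were far apart. Eif3f was thus 2.37-fold lower with torin 1 (log2 change -1.24 ± 0.0764 SE, adjusted p = 9.12e-08). Eif3h, which pairs with Eif3f in the complex, lay between 154 and 174 CPM (median 162) with DMSO and between 81.1 and 109 (median 95.5) with torin 1, again without overlap. It was 1.70-fold lower (log2 change -0.77 ± 0.0822 SE, adjusted p = 1.65e-05). Eif3k fell from between 327 and 407 CPM (median 349) to between 232 and 291 (median 257), a log2 change of -0.44 ± 0.0825 SE (adjusted p = 0.00329). Without the 4 libraries that lay nearer another group, these 3 calls held and no other subunit was called.

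The remaining calls were less certain. Eif3e, the PCI subunit to which Eif3d attaches, had a log2 change of -0.49 ± 0.128 SE (adjusted p = 0.0277), and the call was lost without control DMSO replicate 5 or 6 or without control torin 1 replicate 1, 2, 3 or 4 (adjusted p up to 0.074). Eif3l, the PCI partner of Eif3k, had -0.36 ± 0.103 SE (adjusted p = 0.0454), and kept its call only without control DMSO replicate 1 or 2 or control torin 1 replicate 6, with adjusted p up to 0.107 when any other library was left out. Scaled to library totals in place of TMM factors, only Eif3f, Eif3h and Eif3k were called. The estimates nearest to 0 were those of Eif3b and Eif3a. Eif3b, the scaffold of the module that contacts the decoding site, had -0.16 ± 0.075 SE (adjusted p = 0.238) and Eif3i -0.27 ± 0.0794 SE (adjusted p = 0.0546), called by DESeq2 (adjusted p = 0.017) and, of the single libraries left out, only without control DMSO replicate 1 (adjusted p = 0.0442). Eif3a, the largest PCI subunit and a scaffold of the complex, had -0.20 ± 0.0775 SE (adjusted p = 0.145). Eif3c, the other large PCI subunit, had -0.25 ± 0.117 SE (adjusted p = 0.229), and Eif3d, the subunit that can bind the mRNA cap, -0.37 ± 0.173 SE (adjusted p = 0.239). Control torin 1 replicate 1 was the lowest culture for both, at 202 CPM for Eif3c and 60.4 CPM for Eif3d, where the medians were 331 and 137. In this comparison the replicate numbers paired the cultures, and with the number as a block, all 10 subunits were called lower, beside 20.5% of all genes. Eif3a then had an adjusted p of 0.00852, Eif3b of 0.0248, Eif3c of 0.0429, Eif3d of 0.0258 and Eif3i of 0.00224.

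**Figure D2:**
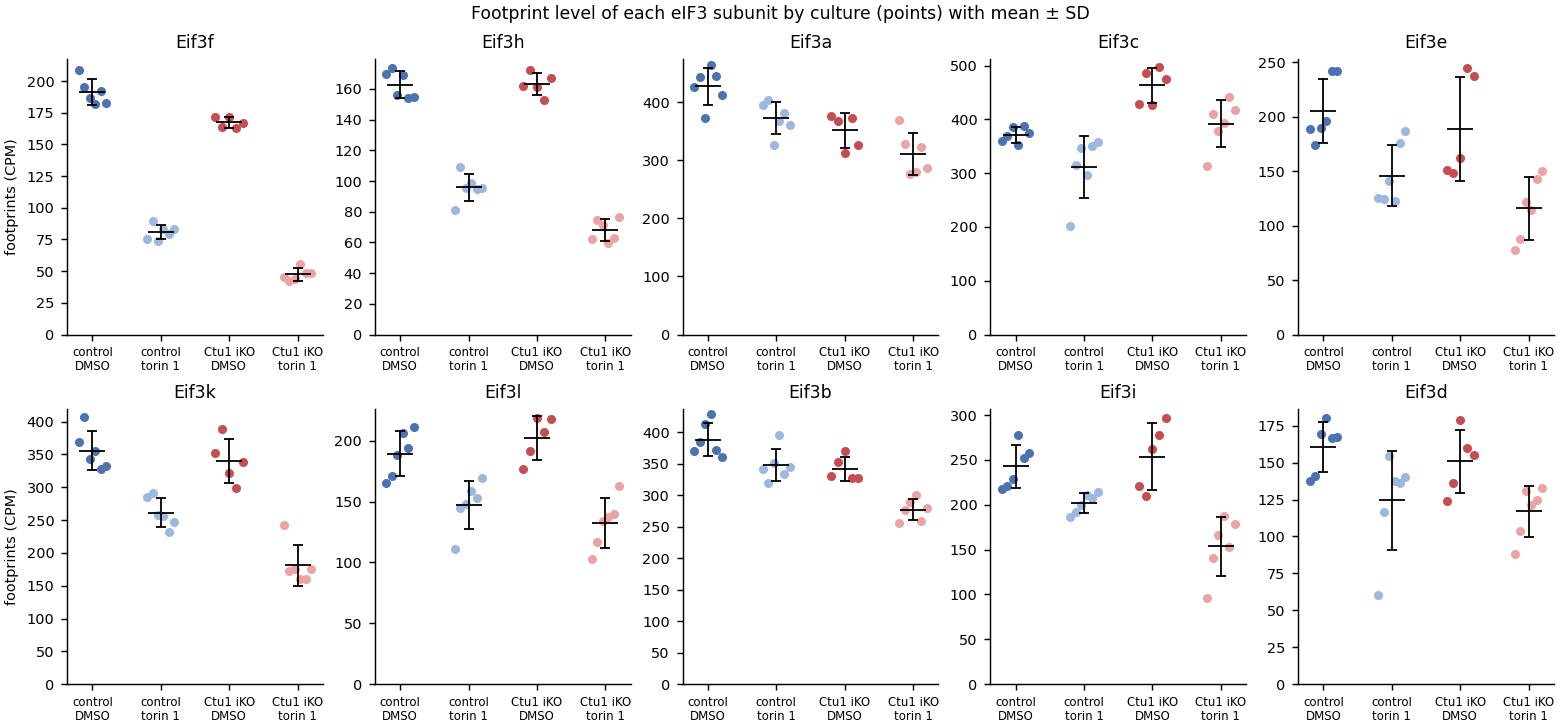
Footprint CPM of each subunit (1 panel each, axes from 0) in every culture of the 4 groups, with points for cultures and bars for mean ± SD (n = 6, 6, 5 and 6). The torin 1 cultures of Eif3f (42.5 to 89.2 CPM) and Eif3h (59.7 to 109 CPM) lie below all DMSO cultures of either genotype, while the groups of Eif3d overlap.

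In Ctu1 iKO cells, torin 1 lowered footprints of 7 of 10 subunits, where 8% of the 9855 genes tested were called and 4.52% were called lower. The median log2 change of the subunits was -0.66, against 0.02 over all genes. Each subunit was below its same-numbered DMSO culture in 5 of 5 numbers, although the numbers did not pair the cultures here. The order of the changes again began with Eif3f and Eif3h, then Eif3k, Eif3i, Eif3e and Eif3l.

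The 5 Ctu1 iKO cultures with DMSO held 172, 164, 171, 163 and 167 CPM of Eif3f, and the 6 with torin 1 between 42.5 and 56.0 (median 46.9). No culture came near the other group. Eif3f was 3.54-fold lower (log2 change -1.82 ± 0.0959 SE, adjusted p = 1.26e-08). Eif3h held 162, 172, 161, 153 and 167 CPM with DMSO and between 59.7 and 76.8 (median 67.4) with torin 1. It was 2.41-fold lower (log2 change -1.27 ± 0.0965 SE, adjusted p = 5.59e-07). Eif3k went from 353, 389, 322, 299 and 338 CPM to between 160.4 and 243 (median 174). The highest torin 1 culture was replicate 1, and the other 5 lay at or below 176. Its log2 change was -0.92 ± 0.119 SE (adjusted p = 0.000166).

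Eif3b and Eif3i, which bind each other, both passed the test here. Eif3i held 222, 210, 262, 278 and 297 CPM with DMSO and between 96.5 and 188 (median 159.8) with torin 1, with replicate 1 as the lowest, and fell by 0.73 ± 0.157 SE on the log2 scale (adjusted p = 0.0106). Eif3l fell by 0.62 ± 0.12 SE (adjusted p = 0.00492). Eif3b had -0.31 ± 0.0804 SE (adjusted p = 0.0293) and Eif3e -0.71 ± 0.195 SE (adjusted p = 0.0383), and each of these calls was lost without any 1 of 6 libraries. For Eif3b these were Ctu1 iKO DMSO replicates 2, 3 and 5 and Ctu1 iKO torin 1 replicates 2, 5 and 6 (adjusted p up to 0.0789). For Eif3e they were Ctu1 iKO DMSO replicates 3, 4 and 5 and Ctu1 iKO torin 1 replicates 2, 3 and 4 (adjusted p up to 0.109). Eif3a, Eif3c and Eif3d were not called, with -0.18 ± 0.101, -0.25 ± 0.0982 and -0.37 ± 0.13 (SE; adjusted p = 0.32, 0.162 and 0.107). When Ctu1 iKO DMSO replicates 3, 4 and 5 were left out, only Eif3f, Eif3h and Eif3k were called, with log2 changes of -1.83, -1.30 and -1.04. Summed RNA CPM of the epithelial markers in Ctu1 iKO ranged from 294 to 363 with DMSO and from 476 to 524 with torin 1, and that of the mesenchymal markers from 6.45e+03 to 9.7e+03 and from 1.09e+04 to 1.83e+04. Their part in the results was not tested.

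The torin 1 response of the MPN subunits was larger in Ctu1 iKO than in control. The difference between both torin 1 effects was tested as an interaction, which called 0.639% of 9857 genes, all of them lower. Eif3f differed by -0.57 ± 0.107 SE on the log2 scale (adjusted p = 0.0053) and Eif3h by -0.50 ± 0.115 SE (adjusted p = 0.0403), and the other 8 subunits were not called. Eif3k differed by -0.47 ± 0.14 SE (adjusted p = 0.241) and Eif3i by -0.45 ± 0.174 SE (adjusted p = 0.762), and Eif3a, Eif3c and Eif3d lay between 0.00 and 0.02. Eif3f kept its call when any 1 library was left out (adjusted p up to 0.0148). Eif3h kept it only without control DMSO replicate 2, control torin 1 replicate 1, Ctu1 iKO DMSO replicate 4 or Ctu1 iKO torin 1 replicate 2 or 6, and lost it without each of the other 18 (adjusted p up to 0.109). Without Ctu1 iKO torin 1 replicate 1, Eif3k was called as well, at -0.57 (adjusted p = 0.013). Without the 4 libraries that lay nearer another group, Eif3f had -0.60 (adjusted p = 0.0519) and Eif3h -0.53 (adjusted p = 0.196), so that neither was called. With the replicate number as a block, Eif3f, Eif3h, Eif3i and Eif3k were called, beside 1.41% of all genes. The numbers did not pair the cultures between genotypes with DMSO or between treatments in Ctu1 iKO, which enter this fit. The calls with the block are thus not read as a result.

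**Figure D3:**
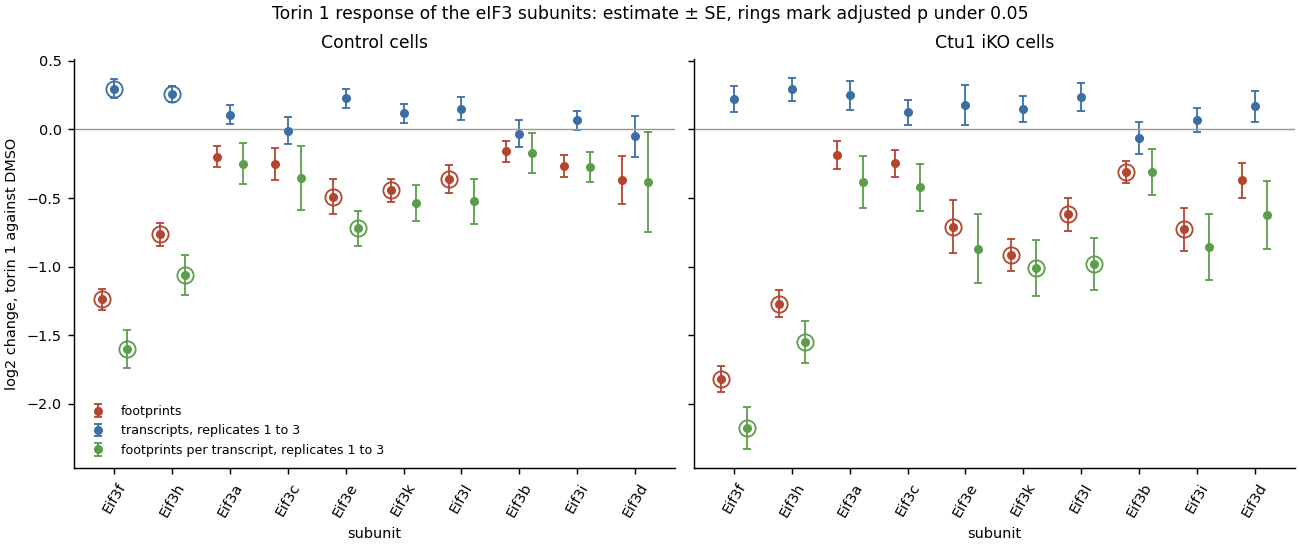
Log2 change with torin 1 of each subunit in control and in Ctu1 iKO, for footprints and for RNA, as estimate ± SE of the edgeR fits, with rings for an adjusted p under 0.05. Eif3f and Eif3h lie at -1.24 and -0.77 in control and at -1.82 and -1.27 in Ctu1 iKO for footprints, while RNA estimates stay between -0.06 and 0.30.

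Loss of Ctu1 without torin 1 moved footprints of 1 subunit, Eif3c, where 2.66% of 10397 genes were called and 1.63% were called higher. Eif3c lay between 352 and 388 CPM (median 371) in control and at 429, 486, 427, 497 and 476 CPM in Ctu1 iKO. All 5 Ctu1 iKO cultures were above all 6 control cultures. Eif3c was 1.25-fold higher (log2 change 0.32 ± 0.0722 SE, adjusted p = 0.0306). The call held without control DMSO replicate 1, Ctu1 iKO DMSO replicate 1 or Ctu1 iKO DMSO replicate 3, and was lost without any 1 of the other 8 libraries (adjusted p up to 0.0809) and without the 3 Ctu1 iKO libraries that lay nearer control. The other 9 subunits had log2 changes between -0.28 (Eif3a, ± 0.0834 SE, adjusted p = 0.0922) and 0.10 (Eif3l, ± 0.0916 SE, adjusted p = 0.63). Eif3f had -0.19 ± 0.0708 SE (adjusted p = 0.174), although its 5 Ctu1 iKO cultures lay below the 6 control cultures. Eif3h had 0.01 ± 0.0727 SE, the value nearest to 0.

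Under torin 1, loss of Ctu1 lowered footprints of 4 subunits, where 4.83% of 9913 genes were called and 2.6% were called lower. These were Eif3f with a log2 change of -0.77 ± 0.0964 SE (adjusted p = 0.000235), Eif3k with -0.53 ± 0.111 SE (adjusted p = 0.0129), Eif3h with -0.49 ± 0.0995 SE (adjusted p = 0.0103) and Eif3b with -0.33 ± 0.081 SE (adjusted p = 0.0311). The groups did not overlap for Eif3f, Eif3h and Eif3b. Eif3b lost its call without any 1 of 7 libraries (control torin 1 replicates 3, 4, 5 and 6 and Ctu1 iKO torin 1 replicates 2, 5 and 6, adjusted p up to 0.0699). Eif3c was the one subunit above 0, with 0.33 ± 0.133 SE (adjusted p = 0.186) and 6 of 6 same-numbered cultures higher. The numbers paired the cultures here too. With the number as a block, 8 subunits were called, beside 14.4% of all genes, and Eif3c was among them with 0.35 (adjusted p = 0.00758), in the opposite direction to the other 7. Without control torin 1 replicate 3, Eif3f, Eif3h and Eif3k were called and Eif3b was not. The summed markers stood apart between the genotypes under torin 1, at 344 to 377 RNA CPM in control and 476 to 524 in Ctu1 iKO for the epithelial list and at 7.14e+03 to 8.95e+03 and 1.09e+04 to 1.83e+04 for the mesenchymal list, and their part in the result was not tested. These genotype comparisons share their cultures with the torin 1 comparisons above.

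No subunit whose footprints were called lower was called lower at the RNA level. RNA of Eif3b was nevertheless lower in 3 of 3 same-numbered cultures in both comparisons that called its footprints lower, by a mean log2 difference of -0.05 with torin 1 in Ctu1 iKO and of -0.15 with loss of Ctu1 under torin 1, neither called. Torin 1 in control raised RNA of Eif3f from 117, 106 and 112 CPM to 143, 130 and 139, and of Eif3h from 144, 144 and 146 to 173, 173 and 175. The groups were apart for both genes. The log2 changes were 0.30 ± 0.0689 SE for Eif3f (adjusted p = 0.0306) and 0.26 ± 0.0552 SE for Eif3h (adjusted p = 0.0234), and the other 8 subunits were not called, where 13.1% of 9617 genes were called and 5.69% were called higher. With 3 cultures a group these calls were fragile. That of Eif3f was lost without any 1 of the 6 libraries (adjusted p up to 0.137) and that of Eif3h without any but control torin 1 replicate 3 (adjusted p up to 0.114). With the replicate number, which paired the RNA libraries, as a block, Eif3e, Eif3f, Eif3h, Eif3k and Eif3l were called higher, beside 43.7% of all genes.

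In Ctu1 iKO, torin 1 left RNA of 0 of 10 subunits called by edgeR, where 8.25% of 9619 genes were, and 3 subunits had an unadjusted p under 0.05. Eif3f held 116, 113 and 128 CPM with DMSO and 138, 130 and 151 with torin 1 (log2 change 0.22 ± 0.0931 SE, adjusted p = 0.195). Eif3h went from 146, 157 and 164 CPM to 188, 184 and 205 (log2 change 0.29 ± 0.0861 SE, adjusted p = 0.0866) and was the single subunit called by DESeq2. With the block, 4 subunits were called higher, Eif3a, Eif3f, Eif3h and Eif3l, beside 35.1% of all genes. No subunit was called lower at the RNA level with torin 1 in either genotype by edgeR with or without the block or by DESeq2.

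In edgeR fits of the groups compared, without the block, Eif3c was the only subunit whose RNA was called between genotypes, and with DMSO only. It held 311, 331 and 323 CPM in control with DMSO and 395, 433 and 384 in Ctu1 iKO with DMSO, with no overlap (log2 change 0.35 ± 0.0698 SE, adjusted p = 0.0385). This was the only call among the subunits, where 5.12% of 10119 genes were called and 3.32% were called higher, and it was lost without any library but Ctu1 iKO DMSO replicate 3 (adjusted p up to 0.15). Under torin 1 the values were 272, 347 and 341 CPM in control and 409, 479 and 445 in Ctu1 iKO, again apart (log2 change 0.48 ± 0.118 SE, adjusted p = 0.0949). There, 1.31% of 9650 genes and 0 subunits were called by edgeR, 2 subunits had an unadjusted p under 0.05, and DESeq2 called Eif3c (adjusted p = 0.00552). With the block, Eif3c (0.49, adjusted p = 0.000742), Eif3d and Eif3l were called higher, beside 32.8% of all genes. Over all alternatives, the log2 change of Eif3c under torin 1 ran from 0.179 to 0.543, so that its size depends on the libraries and settings used. The interaction of Ctu1 loss and torin 1 called no gene at the RNA level by edgeR (0% of 9616, and 3 genes by DESeq2), with 0 subunits at an unadjusted p under 0.05 and 0 called by DESeq2.

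Footprints were set against RNA of the same cultures in replicates 1 to 3, as the log2 ratio of both CPM values (translational efficiency). For Eif3f this ratio was 0.84, 0.88 and 0.74 in control with DMSO and -0.92, -0.55 and -0.91 with torin 1. In Ctu1 iKO it was 0.57, 0.53 and 0.42 with DMSO and -1.60, -1.62 and -1.80 with torin 1. The zero of this ratio is set by the separate scaling of the 2 assays, so that only differences between groups can be read from it. Eif3h ran from 0.24, 0.27 and 0.10 to -1.09, -0.67 and -0.87 in control, and from 0.15, 0.13 and -0.02 to -1.59, -1.31 and -1.52 in Ctu1 iKO. Both subunits had no overlap between treatments.

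**Figure D4:**
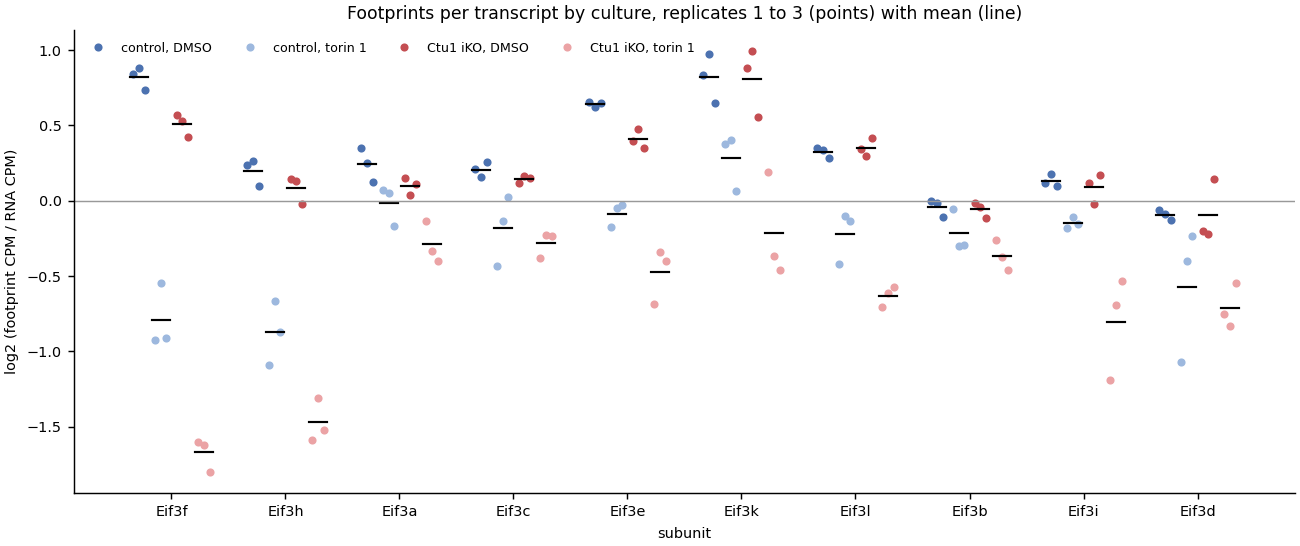
Log2 ratio of footprint CPM to RNA CPM by culture for each subunit in the 4 groups, replicates 1 to 3, with points for cultures and a line for the mean. The mean of Eif3f goes from 0.82 to -0.79 in control and from 0.51 to -1.67 in Ctu1 iKO, while that of Eif3b stays between -0.36 and -0.04.

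In 1 model of both assays, torin 1 in control lowered the translational efficiency of 3 subunits, where 1.18% of 9616 genes were called and 1.12% were called lower. The log2 changes were -1.60 ± 0.14 SE for Eif3f (adjusted p = 7.79e-05), -1.06 ± 0.146 SE for Eif3h (adjusted p = 0.00162) and -0.72 ± 0.129 SE for Eif3e (adjusted p = 0.0131), the last of which was lost without any culture but control torin 1 replicate 3 (adjusted p up to 0.118). In Ctu1 iKO, 4 subunits were called lower, where 1.77% of 9615 genes were called and 1.67% were called lower. Eif3f changed by -2.18 ± 0.154 SE (adjusted p = 3.74e-06), Eif3h by -1.55 ± 0.156 SE (adjusted p = 6.22e-05), Eif3k by -1.01 ± 0.202 SE (adjusted p = 0.0193) and Eif3l by -0.98 ± 0.19 SE (adjusted p = 0.0156). The calls of Eif3k and Eif3l were each lost without 1 of 4 cultures, Ctu1 iKO DMSO replicates 1 and 2 and Ctu1 iKO torin 1 replicate 2 for both, with Ctu1 iKO torin 1 replicate 3 for Eif3k (adjusted p up to 0.199) and Ctu1 iKO DMSO replicate 3 for Eif3l (adjusted p up to 0.121). Without Ctu1 iKO torin 1 replicate 3, Eif3e was called as well, at -0.91 (adjusted p = 0.0298). With the culture as a block, Eif3e and Eif3i were called in addition (adjusted p = 0.0132 and 0.0424). Scaling to library totals raised every value of the control comparison by about 0.13 and of the Ctu1 iKO comparison by about 0.17, and left Eif3f and Eif3h called in both.

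In replicates 1 to 3, loss of Ctu1 left the translational efficiency of all 10 subunits uncalled by edgeR. With DMSO, 0% of 10117 genes were called, 1 subunit (Eif3f, with -0.34 ± 0.124 SE) had an unadjusted p under 0.05 and DESeq2 called 0 subunits. Under torin 1, 0.114% of 9644 genes were called. All 10 subunits were below 0 there, 4 had an unadjusted p under 0.05, Eif3f had -0.89 ± 0.166 SE (adjusted p = 0.0719) and DESeq2 called Eif3f and Eif3h. With all footprint replicates and RNA of replicates 1 to 3, edgeR called 2 subunits, Eif3f among them, with 60 genes called in all. With all replicates of both assays, it called Eif3f, Eif3h and Eif3k lower (adjusted p = 0.00019, 0.00464 and 0.0132), with 113 genes called in all. That fit brings back the RNA libraries set aside above. Of these, torin 1 replicates 5 and 6 of either genotype lay nearer the other genotype, so that its calls are not read as a result.

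To ask which subunits departed from the others, footprints were also scaled to the geometric mean of the 10 subunits in each library, so that 0 stands for the mean change of the 10. The subunits themselves set this scale, and their departures from it balance each other, so that the fall of Eif3f and Eif3h with torin 1 places others above 0. On this scale most genes rose with torin 1, since the subunits together fell, and the median over all genes was 0.48 in control and 0.74 in Ctu1 iKO. In control, 64.1% of 9856 genes were called, 62.7% higher and 1.43% lower. Eif3f (-0.78 ± 0.0864 SE, adjusted p = 2.69e-05) and Eif3h (-0.31 ± 0.081 SE, adjusted p = 0.00552) were below this mean. Eif3b (0.31 ± 0.0863 SE), Eif3a (0.27 ± 0.0954 SE) and Eif3i (0.20 ± 0.0749 SE) passed the test above it (adjusted p = 0.00735, 0.0222 and 0.0307) but not with the median of the subunits as the scale (adjusted p = 0.138, 0.218 and 0.332), and lay below the median of all genes, so that no rise is read from them. The call of Eif3i was lost without control DMSO replicate 1, 2 or 3 or control torin 1 replicate 4 (adjusted p up to 0.0637) and that of Eif3a without control DMSO replicate 3 (adjusted p = 0.0515). Eif3c was also called above the mean without control torin 1 replicate 1, at 0.26 (adjusted p = 0.00764), and with the replicate block (adjusted p = 0.0228). In Ctu1 iKO, 77.2% of 9855 genes were called, 75.9% higher and 1.33% lower. Eif3f (-1.10 ± 0.0968 SE, adjusted p = 4.06e-06) and Eif3h (-0.55 ± 0.1 SE, adjusted p = 0.000424) were again below, and Eif3a, Eif3c, Eif3b and Eif3d were at 0.55, 0.48, 0.41 and 0.35, called on this scale and below the median of all genes as well. Eif3e, Eif3k and Eif3l were not called in either genotype, except Eif3k at -0.33 without Ctu1 iKO torin 1 replicate 1 (adjusted p = 0.0116).

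**Figure D5:**
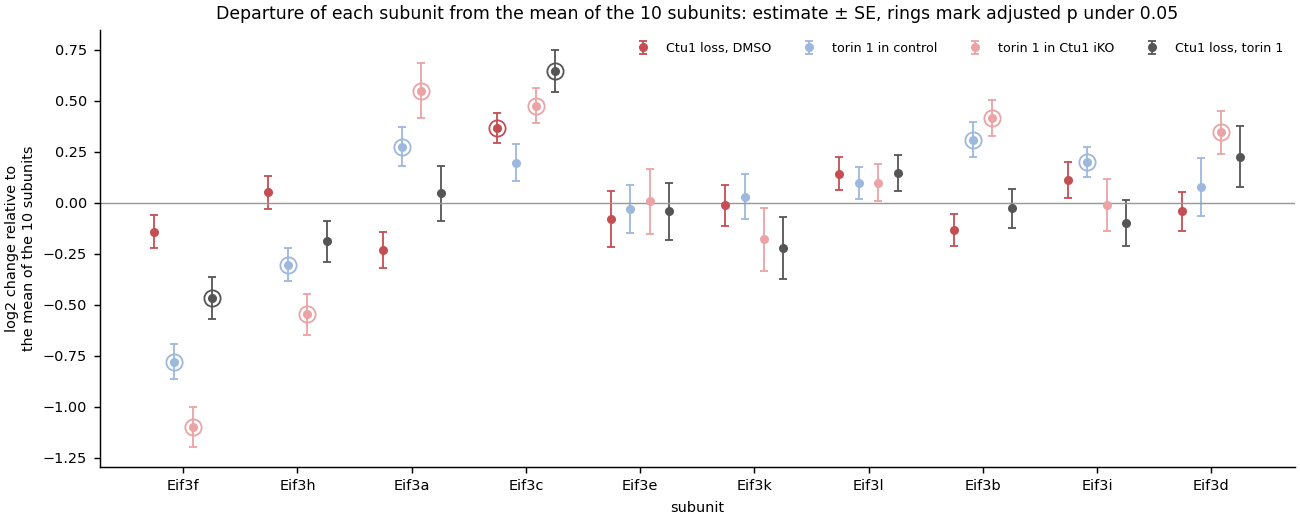
Departure of each subunit from the mean of the 10 subunits, which the subunits themselves set (log2, estimate ± SE) with torin 1 in control and in Ctu1 iKO and with loss of Ctu1 with DMSO and under torin 1, with rings for an adjusted p under 0.05. Eif3f lies lowest with torin 1, at -0.78 and -1.10, and Eif3c lies highest with loss of Ctu1, at 0.37 and 0.65.

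Between genotypes, Eif3c was the subunit called above the mean of the 10, by 0.37 ± 0.0726 SE with DMSO (adjusted p = 0.0176, beside 2.64% of 10397 genes called and 1.91% called higher) and by 0.65 ± 0.103 SE under torin 1 (adjusted p = 0.0016, beside 20.8% of 9913 genes called, 19.8% higher and 0.908% lower). Eif3f was below it under torin 1, by -0.47 ± 0.102 SE (adjusted p = 0.00727). Without Ctu1 iKO torin 1 replicate 1, Eif3k was also called below it, at -0.37 (adjusted p = 0.035), as it was with the replicate block (adjusted p = 0.0155). With the median of the subunits in place of their mean, Eif3f and Eif3h stayed called lower with torin 1 in both genotypes, while Eif3c was not called with DMSO (adjusted p = 0.282) but was under torin 1 (0.70, adjusted p = 0.004), and Eif3f was not called with loss of Ctu1 under torin 1 (adjusted p = 0.0509).

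Of the eIF3 subunits that the symbols chosen here leave out, Eif3g, an RNA-binding subunit of the b and i module, had log2 footprint changes with torin 1 of -0.38 ± 0.101 SE in control (adjusted p = 0.032) and -0.43 ± 0.111 SE in Ctu1 iKO (adjusted p = 0.0298). Eif3m, a PCI subunit that sits beside Eif3f and Eif3h, was not called in any footprint comparison, with torin 1 values of -0.29 ± 0.137 SE and -0.55 ± 0.198 SE (adjusted p = 0.237 and 0.117). Eif3j1, a loosely bound subunit, was lower with loss of Ctu1 both with DMSO (-0.39 ± 0.0949 SE, adjusted p = 0.0429) and under torin 1 (-0.54 ± 0.122 SE, adjusted p = 0.0206). Its RNA had log2 changes of -0.39 ± 0.14 SE and -0.48 ± 0.229 SE there (adjusted p = 0.14 and 0.291), lower in 3 of 3 same-numbered cultures in both. Eif3j2 is a close copy of Eif3j1 and had nearly the same footprints (78.4 against 79.6 CPM in control with DMSO) at 0.459 against 57.1 RNA CPM. The values of Eif3j2 are therefore uncertain, and footprints of both genes are not read as separate results.

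Of 28 other initiation genes, those 4 included, 4 were lower with torin 1 in control (median log2 change -0.17) and 5 in Ctu1 iKO (median -0.21), and none was higher. The lowest was Eif4b, an RNA helicase cofactor, with -0.86 ± 0.118 SE in control (adjusted p = 0.00022) and -1.07 ± 0.113 SE in Ctu1 iKO (adjusted p = 1.96e-05). The highest was Eif4g2 in control, with 0.12 ± 0.0704 SE, and Eif1b in Ctu1 iKO, with 0.30 ± 0.202 SE, neither of them called. Between genotypes, 2 of the 28 were called lower in either treatment, Eif3j1 and its close copy Eif3j2, which are not read as separate results. The highest was Eif6 (0.28 with DMSO and 0.41 under torin 1, not called). In the interaction 0 of the 28 were called by edgeR and 0 had an unadjusted p under 0.05, with values from -0.28 for Eif1 to 0.41 for Eif1b. Cytosolic ribosomal proteins, the best known TOP mRNAs, were lower with torin 1 in 74 of 76 cases in control (median -0.97) and in 76 of 76 in Ctu1 iKO (median -1.60). The values of Eif3f, -1.24 and -1.82, were thus beyond their medians, and those of Eif3h and all other subunits were not. In the interaction, 37 of the 76 ribosomal proteins were called lower and 76 of 76 lay below 0 (median -0.64), and the values of Eif3f (-0.57) and Eif3h (-0.50) were not beyond this median.

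Over all 23 footprint libraries, the subunits did not move as one. Pearson's r of log2 CPM was 0.97 between Eif3f and Eif3h, the highest of 45 pairs, 0.92 between Eif3f and Eif3k and 0.91 between Eif3h and Eif3k. The lowest was -0.30, between Eif3a and Eif3c. Against the mean of the other 9 subunits, r was 0.95 for Eif3h and 0.94 for Eif3f, and 0.51 for Eif3a and 0.29 for Eif3c. These values describe libraries that share treatments and scaling. Among 8801 genes with a mean of at least 100 footprint counts, those outside the complex whose levels followed the mean of the subunits most closely were Rps4x (r = 0.991), Gm15013 (0.987), Rps3a1 (0.987), Rpl7 (0.985) and Rack1 (0.984), all but Gm15013 proteins of the ribosome or, for Rack1, bound to it.

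Codon content was counted because Ctu1 acts on tRNAs that read AAA, CAA and GAA. The subunits were near the middle of all genes, with a median of 2.16% AAA codons, the same as over 10186 genes. Eif3e was the richest in AAA with 4.49%, followed by Eif3a with 3.42% and Eif3h with 3.41%. Eif3f held 1.11% and Eif3i 0.615%. Codon content was not tested against any response. For AAA, CAA and GAA together, Eif3f had 4.16% against a median of 6.06% over all genes, and Eif3a the most with 13.5%.

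The subunit genes are spread over 5 chromosomes in the annotation of GRCm38 (GENCODE M21). Eif3f lies on chromosome 7 from 108934417 to 108942951 on the plus strand, Eif3k on chromosome 7 from 28971372 to 28981864 and Eif3c on chromosome 7 from 126546455 to 126566411, both on the minus strand. Eif3h lies on chromosome 15 from 51786558 to 51865523 on the minus strand. Counts per gene do not show where on these genes the reads fell.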

How the data were processed

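Footprints and poly(A) RNA were counted per gene in 46 libraries. The authors deposited raw read counts, not normalized. By their methods, footprint reads were trimmed with cutadapt 3.4, processed with UMI-tools 1.1.1, cleared of rRNA and aligned with STAR 2.5.3a; whether reads with the same UMI were collapsed is not stated, and the build is given as mm10 in the labels and as a human one in the methods, while the symbols are mouse. RNA came from a stranded mRNA kit, with all counts even. The deposited tables held only entries that reach 100 footprint counts in at least 1 library. Footprint depth differed between groups, with a median of 26312873 counts in control with DMSO and 10582524 in Ctu1 iKO with torin 1. Its part in the results was not tested.

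Counts were tested with edgeR 4.0.16 (TMM, quasi-likelihood, R 4.3.3; genes with a mean count of at least 10; Benjamini-Hochberg adjusted p under 0.05 over all genes), with DESeq2 1.42.0 as an alternative. Translational efficiency was an interaction of assay and condition. Scripts were tested on simulated data. Replicate numbers were taken as pairing cultures where every pair's deviations correlated above 0.1, as in all RNA comparisons (r from 0.48 to 0.84) and in footprints for torin 1 in control (0.46 to 0.65) and loss of Ctu1 under torin 1 (0.36 to 0.61). Named genes were the 10 subunits, the extremes of a list of 28 initiation genes with all other eIF3 subunits in it, the 5 genes most like the subunits, and Ctu1. These members and lists were chosen with earlier results of these data known. On 23 entries, 11 symbols occurred more than once and were left out.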

Additional observations from a re-analysis of the deposited data

Results flagged for a closer look

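Eif3k footprints in Ctu1 iKO with torin 1 replicate 1 stood apart at 243 CPM, while the other 5 cultures lay between 160 and 176. Of 40 groups of subunit values looked at, this was the only one with such a gap, and chance gives about 1 in 20. Without this culture the interaction of Eif3k was -0.57 in place of -0.47.

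The torin 1 effect on Eif3f footprints was lower in Ctu1 iKO than in control by -0.573 on the log2 scale (edgeR interaction, adjusted p = 0.0053). For Eif3h the difference was -0.495 (adjusted p = 0.0403). For both, every torin 1 culture of Ctu1 iKO lay below every torin 1 culture of control. This describes the genotypes under torin 1 and not the difference between the torin 1 effects. It held for Eif3b too, whose interaction was not called.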

How the results depend on the processing

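Of 63 subunit values over 18 comparisons, 19 kept their direction and side of the threshold under every alternative, and 1 reversed, Eif3d footprints with loss of Ctu1 under torin 1 (0.107 in replicates 1 and 2). Causes were not tested. Counts are subunits called, then genes called where these moved over 1.5 times.

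Footprints, loss of Ctu1 with DMSO, had 1 subunit and 277 genes called. This became 2 and 700 with DESeq2, 0 with all 4 groups fitted, 0 and 0 in replicates 1 and 2, 0 and 184 in replicates 3 to 6, 0 and 2 in replicates 1 to 3, 0 and 123 without the 4 libraries off their axis and 0 to 1 and 144 to 285 with 1 library left out. Torin 1 in control had 5 and 714, and 3 with library totals, 10 and 2019 with the replicate block, 1 and 134 in replicates 1 and 2, 2 and 138 in replicates 1 to 3, 3 without the 4 libraries and 3 to 6 with 1 left out. Torin 1 in Ctu1 iKO had 7 and 788, and 2 and 144 in replicates 1 and 2, 2 and 178 in replicates 1 to 3, 3 and 329 without the 4 libraries and 5 to 7 with 1 left out, with 1187 genes with all 4 groups. Loss of Ctu1 under torin 1 had 4 and 479, and 8 and 1425 with the block, 0 and 0 in replicates 1 and 2, 0 and 1 in replicates 1 to 3 and 3 to 4 and 301 to 572 with 1 left out, with 842 genes by DESeq2 and with all 4 groups and 316 without the 4 libraries. The interaction had 2 and 63, and 4 and 139 with the block, 0 and 1 in replicates 1 and 2, 0 and 2 in replicates 1 to 3, 0 without the 4 libraries and 1 to 2 with 1 left out, with 109 genes by DESeq2.

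Transcripts, loss of Ctu1 with DMSO, had 1 and 518, and 0 with all 4 groups, 3 and 2677 with all replicates and 0 to 1 and 0 to 511 with 1 left out, with 1530 genes by DESeq2, 2831 with the block, 1547 in replicates 1 and 2 and 805 in replicates 1 to 4. Torin 1 in control had 2 and 1259, and 5 and 4206 with the block and 0 to 1 and 412 to 1233 with 1 left out, with 1963 genes by DESeq2. Torin 1 in Ctu1 iKO had 0 and 794, and 1 and 1609 with DESeq2, 4 and 3378 with the block and 1 and 1717 with all 4 groups, with 0 genes in replicates 1 to 4 or all replicates. Loss of Ctu1 under torin 1 had 0 and 126, and 1 and 1092 with DESeq2, 3 and 3162 with the block, 1 and 970 with all 4 groups and 1 and 840 in replicates 1 to 4, with 12 genes in replicates 1 and 2 and 0 with all replicates. With 1 left out, these genes ran from 123 to 1123 and from 1 to 406.

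Translational efficiency with torin 1 in control had 3 and 113, and 5 with all replicates and 2 to 3 and 63 to 104 with 1 left out, with 227 genes by DESeq2. In Ctu1 iKO it had 4 and 170, and 2 with library totals and 2 to 4 and 105 to 163 with 1 left out, with 316 genes by DESeq2 and 257 with all replicates. With loss of Ctu1 under torin 1 it had 0 and 11, and 2 and 102 with DESeq2, 3 and 113 with all replicates and 2 and 60 with all footprint replicates, with 3 genes by library totals, 0 to 8 with 1 left out. With DMSO it had 0 genes, and 21 with DESeq2, 5 with all replicates, 2 with all footprint replicates and 1 with library totals or the culture block.

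Relative to the complex, loss of Ctu1 with DMSO had 1 and 275, and 0 and 58 with the subunits' median, and 154 to 290 genes with 1 left out. Torin 1 in control had 5 and 6316, and 2 and 3942 with the median, which moved all values by -0.11, and 3 to 6 with 1 left out. Loss of Ctu1 under torin 1 had 2 and 2057, and 1 with the median, 4261 genes with the block and 2 to 3 and 1304 to 2949 with 1 left out. With transcript length, the highest footprint level was 10.5 times the lowest in control and 12.3 times in Ctu1 iKO with torin 1.

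Library totals moved the share of higher calls in footprints from 61% to 73.2% (loss of Ctu1 with DMSO), 40.2% to 64.8% and 43.5% to 64.7% (torin 1 in control and Ctu1 iKO) and 46.1% to 58.2% (loss of Ctu1 under torin 1), in transcripts from 43.4% to 33.3%, 45.2% to 30.8% and 73% to 58.2% in the last 3 of these, and in translational efficiency of torin 1 in Ctu1 iKO from 5.29% to 19%. The subunits' median moved it from 72.4% to 56.9% for loss of Ctu1 with DMSO.

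Replicate numbers did not pair footprint cultures in the other comparisons (lowest r -0.1 and -0.033), where the block called 1 and 8 subunits. Beyond the calls given, the block changed none in paired comparisons. Leaving out the 4 libraries and dividing RNA counts by 2, which changed no subunit's call, were chosen after seeing the data. Depth limits Eif3f most in Ctu1 iKO with torin 1 (216 counts in the lowest library).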
